A study of Bos taurus with 20 samples.

Results

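The genes described here make the class I antigen presentation pathway and its immunoproteasome. They are 10 cattle symbols (BOLA, B2M, TAP1, TAP2, TAPBP, ERAP1, PSMB8, PSMB9, PSMB10 and NLRC5), named for their place in a known pathway, with no measured value in the rule. The symbols were looked up in the NCBI cattle gene table. BOLA named 2 gene IDs, 533050, written BoLA in the table, and 515712, written BOLA, so the list holds 11 genes of the 37063 in the count files. All 11 had at least 10 counts in at least 5 cows, the minimum for a test, and the lowest count of any of them in any cow was 1194 (TAP2).

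Class I molecules carry peptides from inside the cell to its surface, where cytotoxic T cells read them. Proteasomes cut proteins into peptides, and in immune cells and under interferon the catalytic subunits PSMB8, PSMB9 and PSMB10 replace PSMB5, PSMB6 and PSMB7, which gives the immunoproteasome. TAP1 and TAP2 together form the pump that moves the peptides into the endoplasmic reticulum, where ERAP1 trims them, tapasin (TAPBP) helps to load them, and the class I heavy chain pairs with beta-2-microglobulin (B2M). NLRC5 is the transactivator of the class I genes. Interferons are known inducers of most of these genes, interferon gamma above all.

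Whole blood was drawn on day 63 of gestation from 20 recipients, each carrying a female beef foetus conceived with X-sorted semen from an embryo produced in vitro, and RNA of each cow gave 1 library. The cows form a single group with no untreated or non-pregnant cows, and the variable of interest was how heavy the calf was when born (calf BW, 30 to 72.5 kg). Slopes on calf BW were tested in the 19 cows whose calves weighed 30 to 56 kg (43.5 ± 7.97 kg, SD, n = 19), because the study left the 72.5 kg calf out of this test, whereas correlations between genes used all 20. Each recipient is named here by the BW of its calf, and the labels give no batch. The study's text calls the recipients lactating dairy cows in its methods but lists their breed as Angus elsewhere, with ages over a span of several years, and the labels give no age, breed or parity, so none of these entered a fit and their part in the slopes was not tested.

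Levels are CPM, a gene's counts per 1000000 counts of its library after TMM scaling, and differences and slopes are on the log2 scale. Total counts ranged from 24632077 to 39892111 per cow (median 33412740), and all 190 pairs of libraries differed by more than sampling noise (chi-square per degree of freedom at least 12.6). The labelled tissue was checked against blood cell markers: 7 of 8 neutrophil, 8 of 8 T cell, 7 of 7 B cell, 7 of 7 monocyte, 6 of 6 platelet and 6 of 7 erythroid markers were detected, but 1 of 6 eosinophil markers. The eosinophil markers EPX, PRG2 and SIGLEC8 and the neutrophil marker FPR1 had no match in the gene table, so they could not be looked up. CCR3 and ALOX15 were listed at 0 in every cow, and the eosinophil marker detected was IL5RA. Summed markers spanned 2478 to 4298 CPM for neutrophils, 899 to 1386 CPM for T cells and 622 to 1351 CPM for monocytes. In bulk blood, fewer cells of a type and less RNA per cell cannot be told apart. CPM is not corrected for transcript length, so levels are compared between cows and not between genes.

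The heavy chain genes varied more between cows than the rest of the pathway. BOLA (515712) ranged from 1814 CPM in the recipient of the 41.5 kg calf, through a median of 4007 CPM, to 5802 CPM in the recipient of the 37 kg calf. The recipient of the 43 kg calf was also low, at 2080 CPM, and the other 18 cows had 3241 CPM or more. BoLA (533050) ranged from 739 CPM (54 kg calf) through 1115 CPM to 1923 CPM (47.4 kg calf), and the cows that were low for BOLA held ordinary BoLA levels of 969 and 1125 CPM. Between cows, the SD of log2 CPM was 0.41 for BOLA and 0.31 for BoLA, higher than that of 69.2% and 61.2% of the tested genes. Classical class I genes form a polymorphic family whose members resemble one another, and the number of them differs between cattle haplotypes. How multi-mapping reads were counted is not given in the sources used here, so the division of reads among these IDs is uncertain. In the gene table the span of BoLA (533050) also overlaps 5 other genes, MIC1 and MIC2 among them.

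B2M, the light chain that every class I molecule shares, was steadier. It ranged from 326 CPM (36 kg calf) through 412 CPM to 503 CPM (55 kg calf), with an SD of 0.16 on the log2 scale. Over 20 cows it had a Pearson r of 0.04 to BOLA and -0.11 to BoLA.

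The partners of the peptide pump spread over similar ranges but in different cows. TAP1 ranged from 203 CPM (41.5 kg calf) through 258 CPM to 309 CPM (30 kg calf). TAP2 ranged from 40.1 CPM (32 kg calf) through 47.9 CPM to 65.7 CPM (56 kg calf), with 62.8 CPM in the recipient of the 46 kg calf and 58.5 CPM in that of the 43 kg calf next. The cow highest for TAP2 had 247 CPM of TAP1, below the TAP1 median. TAPBP, the tapasin that bridges pump and heavy chain, was the steadiest member (456 CPM in the recipient of the 41.5 kg calf, median 543, 614 CPM in that of the 40 kg calf, SD 0.13). The trimming peptidase ERAP1 was the most variable outside the heavy chains, from 89.2 CPM (54 kg calf) through 121 CPM to 192 CPM (56 kg calf), with an SD of 0.27.

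The immunoproteasome subunits kept a narrow band. PSMB8 ranged from 315 CPM (41.5 kg calf) through 445 CPM to 493 CPM (30 kg calf). PSMB9 ranged from 56.8 CPM (41.5 kg calf) through 74.0 CPM to 84.8 CPM (32 kg calf), and PSMB10 from 60.2 CPM (72.5 kg calf) through 72.8 CPM to 89.6 CPM (43 kg calf). For PSMB8 the recipient of the 41.5 kg calf stood apart below the next, the recipient of the 72.5 kg calf at 355 CPM. The transactivator NLRC5 ranged from 351 CPM (41.5 kg calf) through 453 CPM to 562 CPM (46 kg calf). The recipient of the 41.5 kg calf therefore had the lowest level of 6 of the 11 genes (BOLA, TAP1, TAPBP, PSMB8, PSMB9 and NLRC5), and its levels of TAP2 (50.9 CPM) and B2M (449 CPM) were above their medians.

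**Figure D1:**
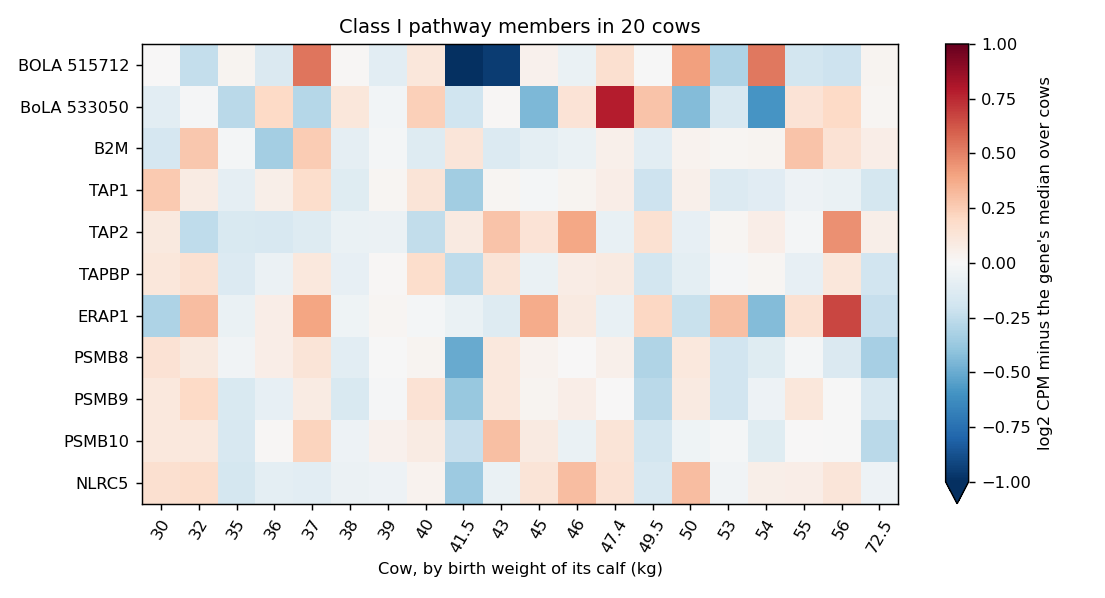
Level of each class I pathway gene (rows) in each of 20 cows (columns, in order of calf BW in kg), as log2 CPM minus the gene's median over cows; red is above and blue below the median, and the colour scale ends at -1 and 1. The recipients of the 41.5 and 43 kg calves are lowest for BOLA (1814 and 2080 CPM), and the column of the 41.5 kg calf is also blue for TAP1, TAPBP, PSMB8, PSMB9 and NLRC5.

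The next question was which of these genes varied together from cow to cow. TAP1, PSMB8, PSMB9, PSMB10 and TAPBP formed a block in which every pair had an r of 0.69 or more. The loosest pair was TAPBP and PSMB8, with a Pearson r of 0.69 and a Spearman rho of 0.56. Its permutation p for rho, adjusted by the Benjamini-Hochberg method over all member pairs, was 0.0558. Without the 2 cows farthest from the TAPBP median, its r was 0.48. The tightest pair was TAP1 and PSMB8, with a Pearson r of 0.92 and a Spearman rho of 0.91 (permutation p = 1e-05 for each, the smallest that 100000 resamples can give). Without the 2 cows farthest from the TAP1 median, r was 0.89. PSMB8 and PSMB9 had an r of 0.86, TAP1 and PSMB9 of 0.84, and PSMB8 and PSMB10 of 0.80. TAP1, PSMB8 and PSMB9 are close neighbours in the gene table, whereas PSMB10 lies elsewhere and overlaps LCAT there. TAP2, which was outside the block, shares the nearby genes LOC618733 and LOC132343596 with TAP1, PSMB8 and PSMB9. The part of gene position in these correlations was not tested.

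NLRC5 was tied most to PSMB9 (r = 0.72, rho = 0.60) and less to PSMB8 (r = 0.58, rho = 0.39). Its r to TAP1 was 0.56, and 0.33 without the 2 cows farthest from the TAP1 median. ERAP1, B2M, TAP2 and the heavy chains stood outside the block. TAP2 had an r of -0.26 to TAP1, its partner in the pump (rho = -0.42, permutation p = 0.0662), and -0.32 to BOLA. The heavy chains had an r of -0.15 to each other. Over all 55 pairs the median r was 0.14, beside -0.002 over all pairs of tested genes. An r above 0.5 was found in 14 of the 55 pairs, beside 3.6% of all gene pairs, and 13 pairs, all positive, had a Benjamini-Hochberg p below 0.05 over the 55 Pearson tests. The genes share libraries, and pairs that share a gene are not independent.

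**Figure D2:**
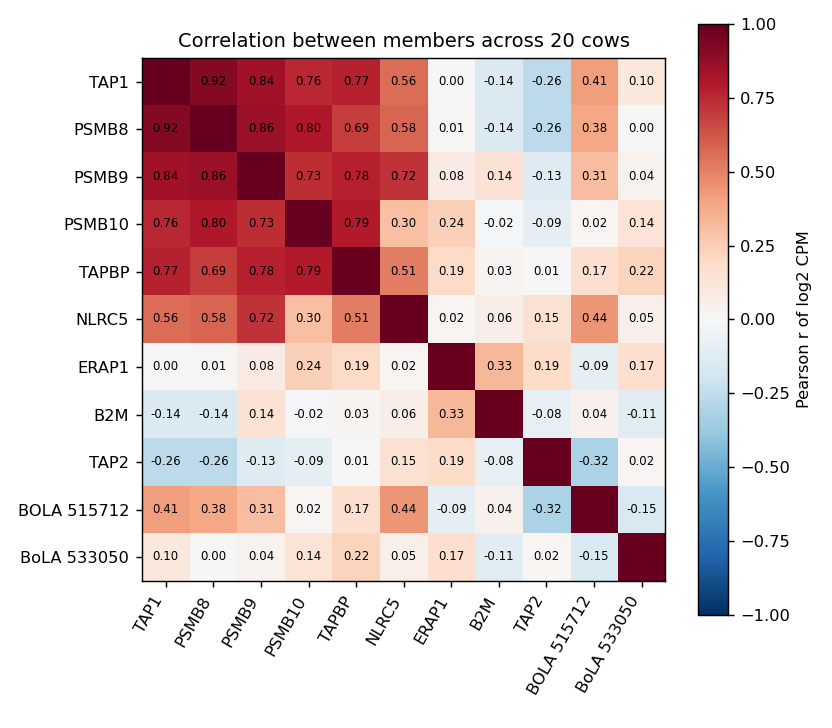
Pearson r of log2 CPM between each pair of class I pathway genes across 20 cows, on a scale from -1 (blue) to 1 (red). TAP1, PSMB8, PSMB9, PSMB10 and TAPBP fill the red corner with r from 0.69 to 0.92, and TAP2 has an r of -0.26 to TAP1.

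The genes of the whole table that followed each member most closely were listed by Pearson r, 3 for each member, as a description. PSMB8 and TAP1 were each other's nearest gene of all tested. Next to TAP1 came RBCK1 (r = 0.87), a subunit of the linear ubiquitin ligase, and SDHA (r = 0.86), a subunit of mitochondrial complex II, which was also next to PSMB8 (r = 0.90). PSME1, a subunit of the PA28 activator that docks on the proteasome, was the third gene for PSMB8 (r = 0.89) and the nearest of all to PSMB10 (r = 0.87). PSME2, its partner in PA28, was the third for PSMB10 (r = 0.83), and LMAN2, a cargo receptor of the secretory pathway, the second (r = 0.84). PSMB9 lay nearest to PSMB8 and TAP1, then to CC2D1B (r = 0.83).

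The rest had neighbours outside the pathway. NLRC5 followed ATN1 (r = 0.89), GAS6 (r = 0.88) and CSNK1G2 (r = 0.87), and TAPBP followed YWHAQ (r = 0.84), ZBTB46 (r = 0.82) and WDR55 (r = 0.79). TAP2 was nearest to the chromatin remodeller CHD7 (r = 0.85), then SPRING1 (r = 0.84) and the lymphocyte receptor gene P2RY10 (r = 0.83). ERAP1 was nearest to FAM204A (r = 0.85), CLEC2B (r = 0.76) and APMAP (r = 0.74). B2M was nearest to STRADB (r = 0.80), GUCY1A2 (r = 0.78) and VPS37A (r = 0.77). The heavy chains had the loosest neighbours: PI4K2B (r = 0.74), ZBTB38 (r = 0.72) and PDCD1 (r = 0.72) for BoLA, and LOC107131805 (r = 0.76), INCA1 (r = 0.73) and CNPY4 (r = 0.72) for BOLA.

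Co-variation with interferon-responsive genes was measured against the mean z-score of lists that contain none of the members. The interferon gamma score was made of 15 tested genes of a list of 20, such as GBP4, GBP5 and IDO1, and the type I interferon score of 35 genes such as ISG15, MX1 and OAS2. The score of the recipient of the 30 kg calf was the highest for both, 1.03 for interferon gamma, where the recipient of the 37 kg calf had 0.82, and 3.10 for type I interferon, where the next cow had 0.68.

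The block of TAP1, TAPBP and the immunoproteasome genes had the highest correlations of the list with the interferon gamma score. TAP1 had a Pearson r of 0.79 and a Spearman rho of 0.77 (permutation p = 4e-05 and 0.00017), rank 3 of 16254 genes ordered by r. PSMB10 had an r of 0.77 and a rho of 0.84 (permutation p = 4e-05 for r), rank 6 in the same order. TAPBP followed with an r of 0.71 (permutation p = 0.00044), PSMB8 with 0.65 (permutation p = 0.00173) and PSMB9 with 0.63 (permutation p = 0.00302), at ranks 27, 72 and 101. These values did not rest on the 2 cows with the scores farthest from the median, those of the 30 and 37 kg calves. Without both, r was 0.66 for TAP1, 0.77 for PSMB10, 0.71 for TAPBP, 0.58 for PSMB8 and 0.61 for PSMB9.

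The other 6 genes had much lower values. NLRC5 had an r of 0.22 to the interferon gamma score, ERAP1 of 0.21, BoLA of 0.11, B2M of 0.053, BOLA of 0.0064 and TAP2 of -0.17. In all, 5 of the 11 genes had an unadjusted permutation p below 0.05, each with a positive r, beside 4.53% of all genes with a positive r and such a p, and Spearman correlation gave 5 as well. Adjusted by the Benjamini-Hochberg method over all genes, none of the 11 passed 0.05 with either measure, beside 0% of all genes with Pearson correlation. The adjusted p of TAP1 and PSMB10, 0.0814, was the smallest reached by any gene outside the interferon gamma list. In a partial correlation given the T cell and neutrophil marker scores, TAP1 (r = 0.80, permutation p adjusted over all genes = 0.0301), PSMB10 (r = 0.78, adjusted p = 0.0301) and TAPBP (r = 0.74, adjusted p = 0.0422) passed, beside 0.289% of all genes that passed with a positive r. Leaving out the recipient of the 56 kg calf let PSMB10 alone pass (r = 0.78, adjusted p = 0.0407), beside 0.0369% of all genes.

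**Figure D3:**
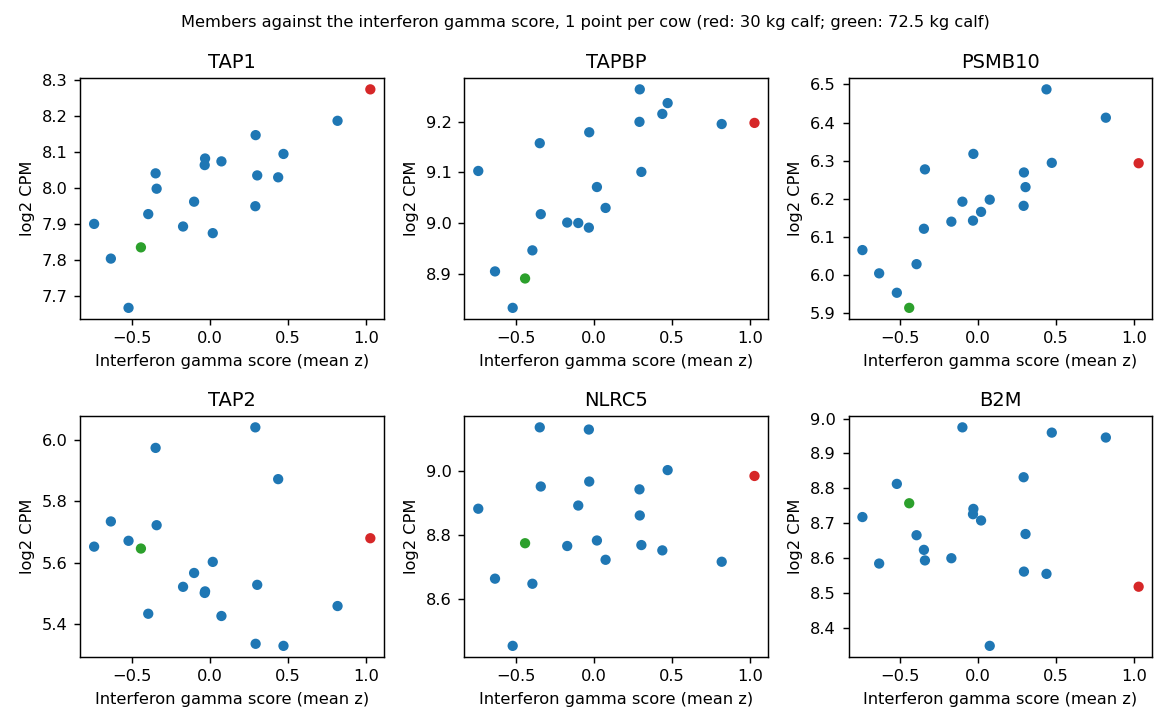
log2 CPM of 6 class I pathway genes (y axes) against the interferon gamma score (x axes, mean z-score of 15 genes), 1 point per cow, with the recipient of the 30 kg calf in red and that of the 72.5 kg calf in green. TAP1 (r = 0.79), TAPBP (r = 0.71) and PSMB10 (r = 0.77) slope upward with the score, whereas TAP2 (r = -0.17), NLRC5 (r = 0.22) and B2M (r = 0.053) scatter.

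The type I interferon score gave weaker values. TAP1 had an r of 0.53 (permutation p = 0.0193, adjusted over all genes 0.558) and a rho of 0.40. This value rested on the recipient of the 30 kg calf, since r was 0.28 without it and 0.20 without it and that of the 72.5 kg calf. PSMB10 had an r of 0.36, TAPBP and PSMB8 of 0.34 and PSMB9 of 0.22, and the other 6 genes lay between -0.28 (B2M) and 0.038 (TAP2). TAP1 was thus the 1 gene of 11 with an unadjusted p below 0.05 by Pearson correlation, beside 3.3% of all genes with a positive r and such a p, and by Spearman correlation there was none. None passed after adjustment with either measure, beside 0.136% of all genes with a positive Pearson r.

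Marker scores of blood cells were set beside the same genes, and the part of cell composition in the relations above was tested only through the partial correlation already given. Of the 77 relations between the 11 genes and 7 scores (2 interferon scores and those of T cells, CD8 T and natural killer cells, B cells, neutrophils and monocytes), a single one passed at an adjusted p below 0.05, by Pearson and by Spearman correlation alike. TAP2 fell as the monocyte score rose, with an r of -0.80 (permutation p adjusted over all genes = 0.00472) and a rho of -0.71 (adjusted p = 0.0433), beside 2.4% of all genes called with a negative r. The recipients of the 56 and 46 kg calves had the lowest monocyte scores, -2.38 and -1.76, and the highest TAP2 levels, and without both r was -0.53. TAP2 also had an r of -0.62 to the neutrophil score (adjusted p = 0.113). B2M had an r of -0.58 to the B cell score (adjusted p = 0.139), and BoLA an r of 0.53 to the T cell score (adjusted p = 0.275), which was 0.27 without the recipients of the 47.4 and 32 kg calves. NLRC5 had an r of 0.56 to the CD8 T and natural killer cell score (adjusted p = 0.286). That r was 0.68 without the recipients of the 32 and 30 kg calves.

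The main question of the design was whether blood levels at day 63 followed calf BW. Slopes of the class I pathway genes were small. TAP1 was negatively and TAP2 positively associated with calf BW at an unadjusted p below 0.05 in edgeR's quasi-likelihood test, that is 2 of 11 genes, beside 13.9% of all 16206 tested genes (7.08% with a negative and 6.78% with a positive slope). After Benjamini-Hochberg adjustment over all genes none of the 11 had an FDR below 0.05 with edgeR, nor with DESeq2, beside 0% of all genes with edgeR and 1.22% with DESeq2. The slope was negative in 5 of the 11 genes and in 53.4% of all genes, and the median slope was 0.0028 per kg beside -0.000719 over all genes.

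TAP1 had a slope of -0.0086 log2 per kg (SE 0.0036, n = 19, edgeR p = 0.0244, FDR 0.279), a fitted level at 56 kg of 0.856 times that at 30 kg. Its highest level, 309 CPM, was in the recipient of the 30 kg calf, and the 4 recipients of calves of 53 to 56 kg had 235 to 249 CPM. The recipient of the 72.5 kg calf, outside the test, had 228 CPM. Without the recipient of the 30 kg calf the slope was -0.0061 (p = 0.123), without that of the 37 kg calf -0.0073 (p = 0.0623), without that of the 49.5 kg calf -0.0074 (p = 0.0563), and with the type I interferon score as a covariate -0.0053 (p = 0.205).

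TAP2 had a slope of 0.0117 log2 per kg (SE 0.0050, n = 19, edgeR p = 0.0304, FDR 0.300), a fitted level at 56 kg of 1.23 times that at 30 kg. The recipients of the 32 to 40 kg calves had 40.1 to 46.1 CPM, whereas the recipient of the 30 kg calf had 51.2 CPM and that of the 56 kg calf 65.7 CPM. Without the recipient of the 56 kg calf the slope was 0.0077 (p = 0.151), without the 32 kg calf's 0.0098 (p = 0.0801), without the 35 kg calf's 0.0110 (p = 0.0515), and without the 30 kg calf's 0.0154 (p = 0.00954). With the monocyte score as a covariate, a fit added after its relation to TAP2 was seen, the slope was 0.0058 (p = 0.135). With the type I interferon score as a covariate it was 0.0168 (p = 0.00739). TAP1 and TAP2 each passed 0.05 in 16 of the 19 fits with 1 cow left out.

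The remaining 9 slopes had intervals that included 0. PSMB8 had a slope of -0.0080 (SE 0.0042, p = 0.0689; p = 0.00864 without the recipient of the 41.5 kg calf and 0.0378 without that of the 50 kg calf), PSMB10 of -0.0052 (p = 0.195) and PSMB9 of -0.0034 (p = 0.432). With the recipient of the 72.5 kg calf included, 3 of the 11 genes had a p below 0.05, TAP1 (p = 0.0160), PSMB8 (p = 0.0146) and PSMB10 (p = 0.0350), all with negative slopes, and TAP2 had a p of 0.0682. TAPBP had a slope of -0.0032 (p = 0.364), ERAP1 of 0.0069 (p = 0.350), B2M of 0.0043 (p = 0.349) and NLRC5 of 0.0036 (p = 0.441). The heavy chains had slopes of 0.0028 for BoLA (95% interval -0.0166 to 0.0222) and 0.0033 for BOLA (-0.0196 to 0.0262), the widest intervals of the list.

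Over the same 19 cows the interferon gamma score had a Pearson r of -0.49 with calf BW (permutation p = 0.0342) and a rho of -0.44, and the type I score an r of -0.50 (permutation p = 0.0151) and a rho of -0.37. Of the type I genes, 35 of 35 tested had a negative slope, beside 53.4% of all genes. An unadjusted p below 0.05 was reached by 26, beside 7.08% of all genes with a negative slope and such a p. Their median slope was -0.029. Without the recipient of the 30 kg calf, 28 of 35 had a negative slope and 8 such a p, with a median slope of -0.0082, and with any other 1 cow left out 35 of 35 were negative and 23 to 30 had such a p (fits added after the counts of the lists were seen). Of the 15 tested interferon gamma genes, 10 had a negative slope, beside 53.4% of all genes. Of these 10, 4 had such a p, GBP5 and UBE2L6 among them, beside 7.08% of all genes with a negative slope and such a p.

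**Figure D4:**
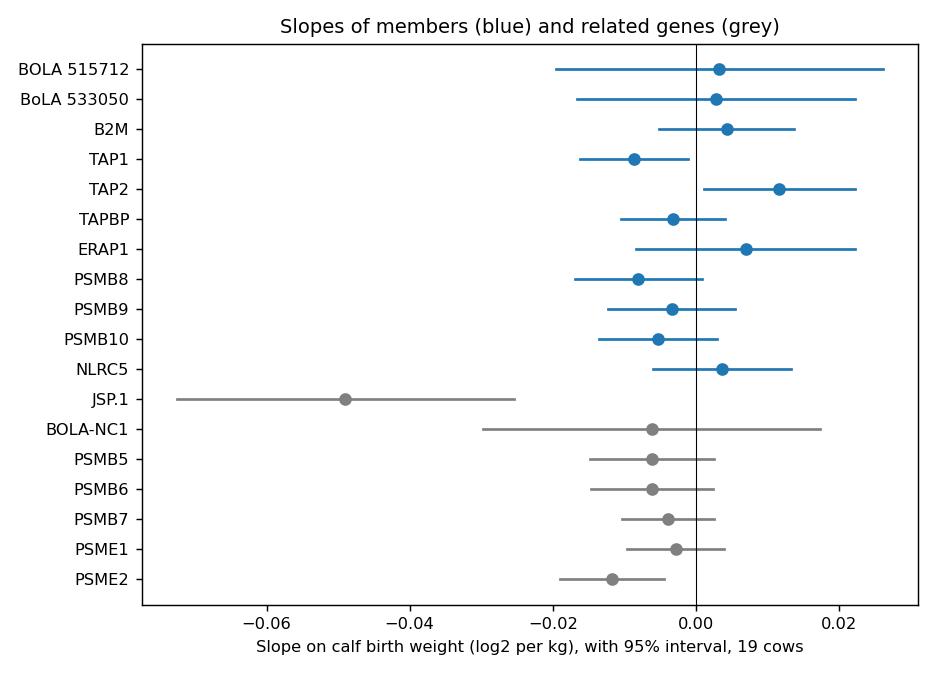
Slope on calf BW (x axis, log2 per kg) from edgeR in 19 cows, with a 95% interval derived from it. Class I pathway genes are blue and related genes grey, and the vertical line marks 0. The intervals of TAP1 (-0.0086) and TAP2 (0.0117) exclude 0 on opposite sides, and JSP.1 (-0.049) lies farthest from 0.

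Whether blood shifted between constitutive and immunoproteasome subunits was examined as the ratio of counts of each immunosubunit to the subunit it replaces, a measure that is free of the scaling between libraries but not corrected for transcript length. PSMB8 to PSMB5 ranged from 22.4 (41.5 kg calf) through 29.6 to 34.4 (50 kg calf), PSMB9 to PSMB6 from 1.70 (38 kg calf) through 2.10 to 2.59 (40 kg calf), and PSMB10 to PSMB7 from 2.16 (41.5 kg calf) through 2.62 to 2.83 (37 kg calf). The ratios showed no detectable relation to calf BW, with an r of -0.10 for PSMB8 to PSMB5 (rho = -0.16, permutation p = 0.676 for r), 0.15 for PSMB9 to PSMB6 (rho = 0.15, permutation p = 0.526) and -0.092 for PSMB10 to PSMB7 (rho = -0.18, permutation p = 0.718). With the type I score, the strongest was PSMB10 to PSMB7 (r = 0.38, permutation p = 0.107, rho = 0.46, permutation p = 0.0410), which was 0.13 without the 2 farthest cows. Over the 6 relations the smallest Benjamini-Hochberg p was 0.643 for r and 0.246 for rho.

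The constitutive subunits themselves had slopes on calf BW of -0.0062 for PSMB5 (p = 0.147), -0.0061 for PSMB6 (p = 0.141) and -0.0039 for PSMB7 (p = 0.211). Of the proteasome activators and assembly factors, 7 of 7 had a negative slope, beside 53.4% of all genes. With any 1 cow left out, 6 or 7 of the 7 were negative, and the slope nearest to 0 was -0.0003 (p = 0.961). A p below 0.05 was reached by 1, beside 7.08% of all genes with a negative slope and such a p. This was PSME2, which ranged from 39.0 CPM (72.5 kg calf) to 62.0 CPM (30 kg calf), with a slope of -0.0117 (SE 0.0034, p = 0.00257, FDR 0.167). With the type I score as a covariate the PSME2 slope was -0.0075 (p = 0.0588). PSME3, of another proteasome activator, had a slope of -0.0046 (p = 0.0917).

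Of the loading chaperones and trimming enzymes, 8 of 9 were tested, and GANAB was listed at 0 in every cow. A negative slope was found in 5 of the 8, beside 53.4% of all genes. The 1 with a p below 0.05 was UGGT1, the glucosyltransferase that senses misfolded glycoproteins, with a slope of 0.0078 (SE 0.0025, p = 0.00577, FDR 0.191). Of all genes, 6.78% had a positive slope and such a p. With the type I score as a covariate the UGGT1 slope was 0.0060 (p = 0.0530). The chaperone HSPA5 had a slope of -0.0053 (p = 0.130). Of the factors of the class I promoter, 8 of 9 were tested (CREB1 was listed at 0). A negative slope was found in 4, beside 53.4% of all genes, and none had a p below 0.05, beside 13.9% of all genes. The lowest p-values there were 0.207 for NFYB and 0.212 for ATF1.

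The list of other heavy chains held JSP.1, BOLA-NC1 and the class I-like genes MR1, FCGRT, HFE, CD1D, CD1E and AZGP1. Of these, 8 of 8 tested had a negative slope on calf BW (7 of 8 without the recipient of the 30 or the 37 kg calf), beside 53.4% of all genes. A p below 0.05 was reached by 2, JSP.1 and HFE, beside 7.08% of all genes with a negative slope and such a p. AZGP1 was near the floor, with a median of 3 counts. The difference of these genes from BOLA and BoLA was not tested. The largest slope was that of JSP.1 (gene ID 407173), a further cattle class I heavy chain gene, which ranged from 908 CPM in the recipient of the 56 kg calf through 2047 CPM to 4489 CPM in that of the 36 kg calf. The 4 highest recipients, at 3334 to 4489 CPM, carried calves of 30, 32, 36 and 43 kg. Its slope was -0.049 (SE 0.0111, n = 19, edgeR p = 0.000256, FDR 0.0976), a fitted level at 56 kg of 0.414 times that at 30 kg. The FDR was 0.0122 with DESeq2, 0.0473 with edgeR on all genes without the count minimum and 0.170 with limma's voom. At an FDR below 0.05, DESeq2 called 189 genes in all, edgeR without the count minimum 147 of 23087, and voom and the main edgeR fit 0. The slope stayed between -0.053 and -0.041 when any 1 cow was left out and was -0.048 (p = 0.00187) with the type I score as a covariate. With the recipient of the 72.5 kg calf included, it was -0.032 (p = 0.00132, FDR 0.151). HFE, the class I-like regulator of iron uptake, was low, 2.25 to 5.22 CPM, with a slope of -0.030 (p = 0.00329, FDR 0.174).

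BOLA-NC1, a non-classical heavy chain gene, had a slope of -0.0062 (p = 0.585). It ranged from 487 CPM (43 kg calf) through 1285 CPM to 1698 CPM (46 kg calf), and the recipient of the 41.5 kg calf was next lowest at 683 CPM, so the cows lowest for BOLA were also lowest for BOLA-NC1. Over 20 cows BOLA and BOLA-NC1 had an r of 0.69 (permutation p = 0.00298) but a rho of 0.28 (permutation p = 0.223), and r was 0.10 without these 2 cows, on which it rested. BOLA and JSP.1 had an r of -0.12, and BoLA and JSP.1 of -0.27.

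Summed over BoLA, BOLA, JSP.1 and BOLA-NC1, heavy chain reads ranged from 5539 CPM (41.5 kg calf) through 8925 CPM to 10978 CPM (36 kg calf), with an SD of 0.24 on the log2 scale, below that of each of the 4 genes. The division of this sum differed between cows. The share of JSP.1 ranged from 13.1% (56 kg calf) through 24.0% to 48.0% (43 kg calf). In the recipient of the 43 kg calf BOLA held 29.3%, its lowest share, and in that of the 54 kg calf it held 58.7%, its highest, beside the lowest share of BoLA, 7.51%.

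**Figure D5:**
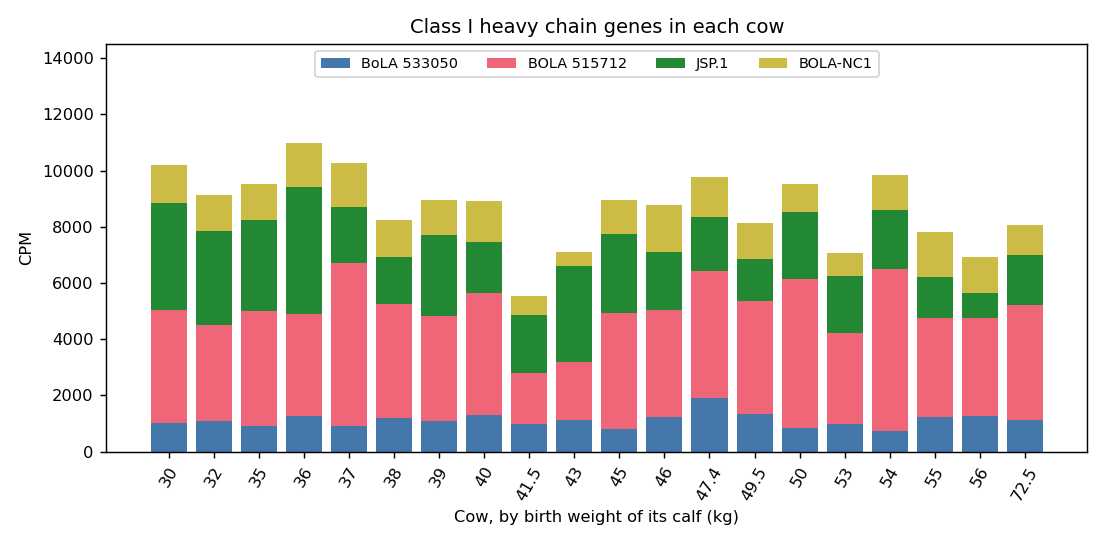
CPM of 4 class I heavy chain genes, stacked, in each of 20 cows in order of calf BW (kg). The summed height runs from 5539 to 10978 CPM, and the green JSP.1 part is 908 CPM in the recipient of the 56 kg calf and 4489 CPM in that of the 36 kg calf.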

How the data were processed

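RNA-seq was performed on whole blood collected in Tempus tubes from 20 pregnant cows, 1 library per cow. The labels name a SMARTer Stranded kit and the study's methods a Truseq-stranded mRNA kit. The authors used Trimmomatic for trimming, STAR 2.7.0b for alignment and featureCounts (Subread 2.0.3) for counting, and deposited unnormalized counts by Entrez ID. Strand setting and treatment of multi-mapping reads are not given in the sources used here. All 37063 IDs were found in the NCBI table of ARS-UCD2.0, but the study aligned to another build, so no coordinates are given. Exon lengths and sequences were not used here.

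Slopes on calf BW as a continuous variable were fitted to the counts of 19 cows with edgeR 4.0.16 (R 4.3.3; TMM, quasi-likelihood test). Genes needed a minimum of 10 counts in 5 or more cows. Adjusted p-values (FDR) are Benjamini-Hochberg over all genes. DESeq2 1.42.0 and limma 3.58.1 (voom), other filters, scalings and covariates, and leaving out each cow were alternatives. Each cow is a separate animal with 1 library, so p-values cover the spread between cows. Correlations used log2 CPM with a prior count of 2 and two-sided permutation tests with 100000 resamples (Python 3.11.15, numpy 2.4.6, scipy 1.17.1). A score is the mean z-score of a list over cows. The slope fit and the correlation test were run on simulated data. The changed genes there had larger slopes than any member or JSP.1, so recovery of slopes as small as the members' was not tested.

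The members and the other lists (heavy chains, loading, proteasome activators, constitutive subunits, promoter factors, interferon genes, cell markers) were chosen with earlier results of these data known. Beyond the members, genes named are the 3 of highest r to each member, the 2 of lowest p in each related list and the constitutive subunits. BOLA-NC1, the other genes of the heavy chain list, the genes listed at 0 and the examples of score genes are named in addition. So are score genes that the study lists as biomarkers, and some markers used to check the tissue. The heavy chain sum was formed after the values were seen. Eosinophil, platelet and erythroid markers served only as a check of the tissue.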

Additional observations from a re-analysis of the deposited data

How the results depend on the processing

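The slope count of 2 of 11 genes at an unadjusted p below 0.05 was 1 with the type I interferon score or, chosen after seeing the data, the monocyte score as a covariate, and 1 to 3 when any 1 cow was left out. The count of genes past the adjusted threshold for the interferon gamma score was 0. It was 3 in the partial correlation given the T cell and neutrophil scores, where p-values can be too small. With 1 cow left out it was 0 to 1 (1 without the recipient of the 56 kg calf). The correlation of the PSMB10 to PSMB7 ratio with calf BW lay between -0.204 and 0.0209 with 1 cow left out. In the remaining alternatives for these counts, the ratios and the median r between members, 34 values kept their direction and side of the threshold or stayed within 1.5 times of the count. Some values for single genes changed sign, none of which had passed the adjusted threshold. For the slope, the values that changed sign were BoLA, -0.0045 with the type I covariate and -0.00038 with the monocyte covariate. For the type I score they were BOLA, 0.023 in the partial correlation, TAP2, -0.029 by Spearman correlation, -0.042 without the 2 farthest cows and -0.063 in the partial correlation, NLRC5, -0.16 by Spearman correlation and -0.33 without the 2 farthest cows, and ERAP1, 0.20, 0.25 and 0.043 under these 3 settings. For the interferon gamma score they were BOLA, -0.14, -0.26 and -0.028 under the same 3 settings, and B2M, -0.063 by Spearman correlation. With 1 cow left out, slopes ranged from -0.00099 to 0.0083 for BoLA, -0.0035 to 0.0084 for BOLA and -0.00093 to 0.012 for ERAP1. Correlations with the type I score ranged from -0.17 to 0.0049 for BOLA, -0.047 to 0.099 for TAP2, -0.26 to 0.087 for NLRC5 and -0.16 to 0.35 for ERAP1. Correlations with the interferon gamma score ranged from -0.056 to 0.22 for BoLA, -0.20 to 0.16 for BOLA and -0.12 to 0.21 for B2M. The cause of these changes was not tested. With 19 cows the SE of the members' slopes was 0.0034 to 0.0109 log2 per kg, which limits the slopes that could be detected. Read division among class I genes and blood cell counts, which were not used here, limit the heavy chain values.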
